A study of Mus musculus with 8 samples.

Results

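Matrix proteases and their inhibitors were followed here in tumor-associated macrophages (TAMs). The group comprised the protein-coding genes named Mmp, Timp, Adam or Adamts followed by a digit, without Mmp12, and it held 62 of the 26939 genes in the joined count tables, of which 16305 are protein-coding. There were 21 Mmp, 4 Timp, 21 Adam and 16 Adamts genes among the 62. A gene was taken as measured when it reached 10 counts in at least 1 library, which 40 of the 62 did: 13 Mmp, 2 Timp, 14 Adam and 11 Adamts genes.

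Matrix metalloproteinases (MMPs) are zinc enzymes that are made as inactive precursors and, once cleaved, cut collagens and other parts of the extracellular matrix. Tissue inhibitors of metalloproteinases (TIMPs) bind and block them. ADAM proteins are membrane-bound relatives, several of which release the outer parts of cytokines, receptors and adhesion molecules from the cell surface, while the secreted ADAMTS enzymes process proteoglycans and procollagens. In tumors, macrophages are a known source of these enzymes.

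The cells were taken at day 21 from tumors of EO771, a mouse breast cancer line, grown in the mammary fat pad of female mice whose age the labels do not give, and the sort kept viable cells positive for CD45, CD11b and F4/80 and negative for Gr-1. Mice were wild-type (WT) or carried the Unc93b1 3d/3d mutation, which leaves cells without working endosomal Toll-like receptors (TLRs), and received either αMARCO, an antibody to the macrophage scavenger receptor MARCO (rat IgG1, clone ED31, 100 µg on days 3, 6, 9 and 12) or control. The labels call the controls untreated and their library names PBS, whereas the protocol names an IgG1 isotype, so which injection they had is not settled. Each of the 4 groups held 2 libraries, the control samples were pools of several mice, and p-values measure only the spread between such samples. Of the 2 Unc93b1 3d/3d control samples, 1 has a genotype label that reads 3d/4d where its title reads 3d/3d. The mutation is carried by the whole animal and not by macrophages alone.

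The libraries held 15182618 to 26411936 counts. Levels are given as CPM, the count scaled to a common library size, and 3 counts correspond to 0.114 to 0.198 CPM. Unc93b1 itself was at 849.6 and 964.8 CPM in WT control and 538.8 and 659.4 CPM in Unc93b1 3d/3d control, and since the mutation does not remove the transcript this checks no label. The 10 macrophage markers summed to between 10947 and 14790 CPM in every library, and none was at 0 in a group. In WT αMARCO, Adgre1, which encodes the sorting marker F4/80, fell with C1qa, C1qb and C1qc. The 2 Unc93b1 3d/3d αMARCO libraries stood apart from each other, with a median chi-square per gene of 11 between replicates against 1.64 to 2.12 in the other groups, and the main results that rest on them are given with and without each.

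Levels between genes were compared as CPM per kilobase of gene length. Adam8 was the most abundant member, with group means from 211.3 CPM per kilobase in WT control to 393.3 in WT αMARCO. It encodes a surface protease of leukocytes. Mmp13, a collagenase, followed at a mean over the 8 libraries of 205.2 CPM per kilobase, and Mmp14, the membrane-type enzyme that activates pro-MMP2, at 105.8. The inhibitor Timp2 came next at 63.7 CPM per kilobase. The sheddases Adam9, Adam15 and Adam17 lay at 47.9, 34.6 and 33.5. Mmp19, Adam10 and Adamts10 completed the 10 highest at 22.8, 16.5 and 12.6 CPM per kilobase. Most neighbors in this order, Adam8 and Mmp13 among them, overlapped in their ranges over libraries, so the order is that of the means. Mmp13 and Mmp14 together gave 84.4% of the summed MMP level per kilobase, Adam8 gave 68.2% of the ADAM level, and Timp2 gave 87.0% of the TIMP level. The MMP sum leaves out Mmp12, so it and its shares are not those of the whole family.

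**Figure D1:**
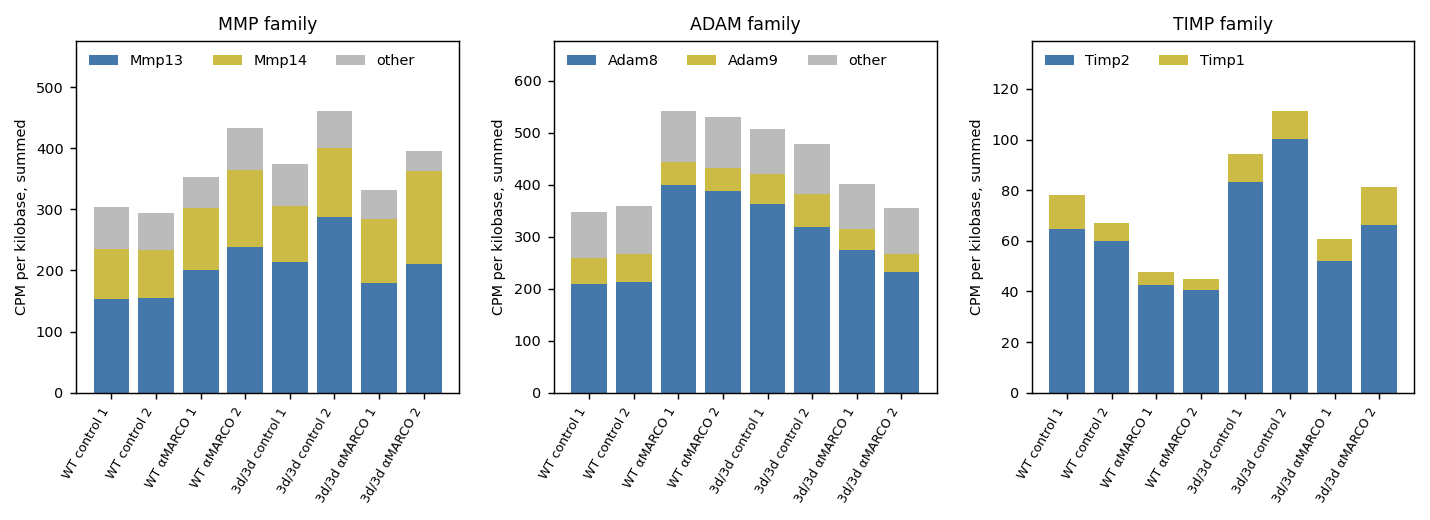
Summed level of the MMP, ADAM and TIMP genes in each of the 8 libraries, as CPM per kilobase of gene length, with the leading genes of each family in color. The MMP sum leaves out Mmp12. The TIMP sum is lowest in the 2 WT αMARCO libraries, at 47.6 and 44.8, and the ADAM sum is highest there, at 541.7 and 531.3.

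The plot of family sums shows levels that moved unequally between families. The MMP sum was 303.5 and 294.3 CPM per kilobase in WT control, 353.5 and 432.3 in WT αMARCO, 374.4 and 460.8 in Unc93b1 3d/3d control while Unc93b1 3d/3d αMARCO gave 331.4 and 396.1. TIMP genes summed to 78.3 and 67.0 in WT control, 47.6 and 44.8 in WT αMARCO, 94.4 and 111.2 in Unc93b1 3d/3d control while Unc93b1 3d/3d αMARCO gave 60.7 and 81.4. The ratio of the 2 sums was therefore 7.43 and 9.65 in WT αMARCO and between 3.88 and 5.46 in the other 6 libraries. These ratios describe mRNA, leave out Mmp12 and were not tested, since the sums rest mainly on Mmp13, Mmp14 and Timp2.

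The promoters of the clustered Mmp genes are shown because 3 called members, Mmp13, Mmp3 and Mmp27, lie in 1 stretch of chromosome 9. Of the 62 genes, 40 have a promoter window in RefSeq (GRCm38.p6), 250 bases before to 50 after the annotated start. The cluster holds 8 members, of which 5 were measured. The last 120 bases before the start of 4 measured members, all on the plus strand, are printed 5′ to 3′ with capitals marking the letters TGANTCA of the AP-1 site and TATAAA of the TATA box. They lie at chr9:7272394-7272513 for Mmp13, chr9:7445702-7445821 for Mmp3, chr9:7502222-7502341 for Mmp10 and chr9:7571276-7571395 for Mmp27.
Mmp13: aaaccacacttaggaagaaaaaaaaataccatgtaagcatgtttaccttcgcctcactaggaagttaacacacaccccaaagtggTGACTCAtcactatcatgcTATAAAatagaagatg
Mmp3: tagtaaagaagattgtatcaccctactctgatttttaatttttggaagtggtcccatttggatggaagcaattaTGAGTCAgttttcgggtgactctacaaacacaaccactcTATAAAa
Mmp10: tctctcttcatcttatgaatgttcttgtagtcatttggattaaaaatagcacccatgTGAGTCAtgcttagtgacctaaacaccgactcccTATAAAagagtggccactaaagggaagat
Mmp27: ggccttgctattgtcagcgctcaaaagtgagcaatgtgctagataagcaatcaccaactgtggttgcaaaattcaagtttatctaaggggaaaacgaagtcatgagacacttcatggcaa

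AP-1 letters began 35 bases before the start in Mmp13, 46 in Mmp3 and 63 in Mmp10, and TATA box letters began at 16, 7 and 29 bases. The Mmp27 window held neither motif, and that of Mmp8, a collagenase of the cluster, held TATA box letters only, 3 bases before the start and on the opposite strand. Searched on both strands, AP-1 letters were found in the windows of 6 of the 8 clustered members and in 7.81% of 32851 promoters. TATA box letters were found in 7 of the 8 and in 13.6% of all promoters. Outside the cluster, Adam19 and Adam1b were the other members with AP-1 letters. A match is a description of the letters and not of a bound site.

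**Figure D2:**
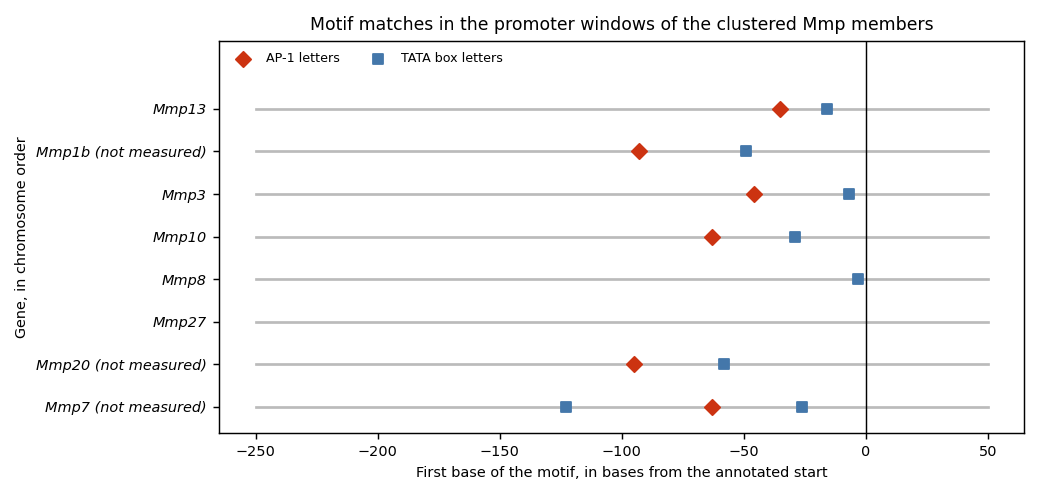
Position of the first base of each motif match in the promoter windows of the 8 Mmp members on chromosome 9, as the distance in bases from the annotated start (vertical line), with red diamonds for AP-1 letters and blue squares for TATA box letters. Mmp27 has no match, and in the 6 genes with AP-1 letters these begin 35 to 95 bases before the start.

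The first question was how αMARCO changed these genes in WT TAMs. A gene was called at an adjusted p (Benjamini-Hochberg) of at most 0.05 in edgeR's quasi-likelihood test and a log2 fold change of 0.5 or more in either direction. Of 37 members tested, 2 rose (5.41%) against 8.91% of the 15630 genes tested, and 9 fell (24.3%) against 11.8% of all genes. The median log2 fold change was −0.28 over the members and −0.01 over all genes. Adam8 and Mmp13 rose. Both measured inhibitors, Timp1 and Timp2, fell, together with Mmp3, Mmp9, Mmp25, Adam11, Adam19, Adam23 and Adamts14. With all 8 libraries in 1 model, 164 of 16620 genes were called. Adam11 and Adam23 were the only members still called (edgeR, adjusted p = 0.0468 and 0.0405). The adjusted p of the other 9 lay between 0.0636 for Adam8 and 0.326 for Mmp9. In sorted bulk samples, fewer cells of a type and less RNA per cell cannot be told apart.

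**Figure D3:**
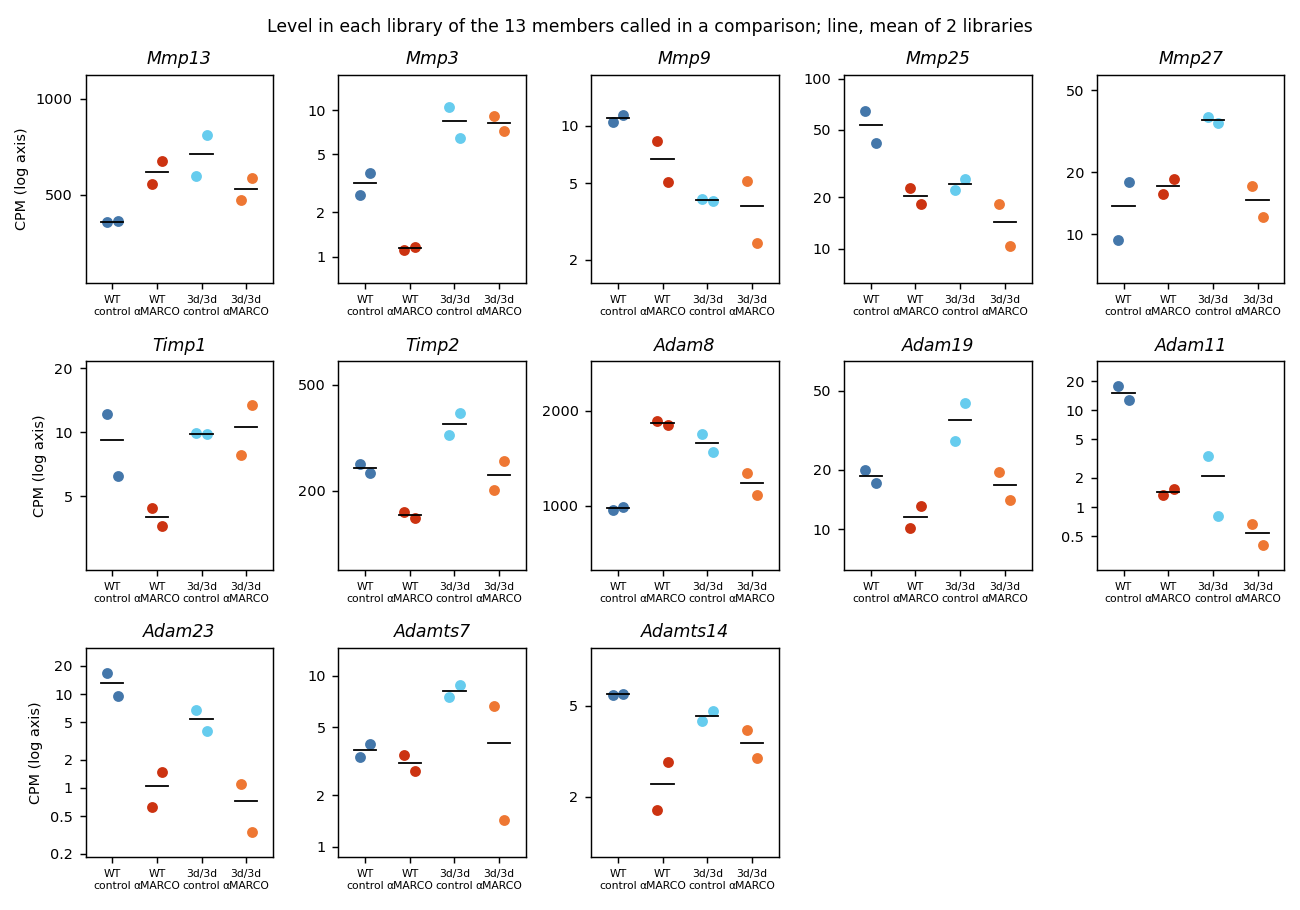
CPM on a log axis in each library (points) with the mean of the 2 libraries (line) for the 13 members called in a comparison, by group. Adam8 lies lowest in WT control, at 971.0 and 989.4 CPM, and Adam11 and Adam23 lie highest there.

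Adam8 (GRCm38 chr7:139978932-139992562) was at 971.0 and 989.4 CPM in WT control and at 1849 and 1799 CPM in WT αMARCO. Both treated libraries were close together and well above both controls. The rise was 1.86-fold (log2 fold change 0.90 ± 0.09, standard error; edgeR, adjusted p = 0.000218). In Unc93b1 3d/3d TAMs Adam8 was at 1688 and 1483 CPM in control and 1271 and 1081 CPM under αMARCO, so that the treated libraries there were the lower ones.

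Mmp13 (chr9:7272514-7283331), which cleaves fibrillar collagen, was at 410.7 and 414.4 CPM in WT control and 538.6 and 639.2 CPM in WT αMARCO. It rose 1.43-fold (log2 fold change 0.51 ± 0.10; edgeR, adjusted p = 0.00313). The value lies just past the fold change threshold, and without WT αMARCO replicate 2 it was 0.40 (adjusted p = 0.0344). Without WT control replicate 1 it was 0.50 and also missed the threshold. Mmp14 was just outside at a log2 fold change of 0.50 ± 0.10 (edgeR, adjusted p = 0.00554), with 483.8 and 470.9 CPM in WT control and 602.2 and 744.2 CPM in WT αMARCO.

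Among the inhibitors, Timp2 (chr11:118301069-118355740) was at 251.6 and 233.7 CPM in WT control and 165.9 and 158.6 CPM in WT αMARCO. The groups did not overlap, and Timp2 fell 1.49-fold (log2 fold change −0.58 ± 0.08; edgeR, adjusted p = 0.000829). Timp1 (chrX:20870166-20874735) was at 12.13 and 6.20 CPM in WT control and 4.4 and 3.6 CPM in WT αMARCO. Its 2 control libraries differed more from each other than the lower of them did from either treated library. The fall of Timp1 was 2.30-fold (log2 fold change −1.20 ± 0.32; edgeR, adjusted p = 0.0192), and it was no longer called without WT control replicate 1 (−0.64, adjusted p = 0.0779), without WT αMARCO replicate 1 (−1.35, adjusted p = 0.0755) or without WT αMARCO replicate 2 (−1.05, adjusted p = 0.136). Timp3 and Timp4 were not measured.

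Mmp3 (stromelysin-1) (chr9:7445822-7455975), a protease of broad range, was at 2.64 and 3.71 CPM in WT control and 1.11 and 1.17 CPM in WT αMARCO. It fell 2.76-fold (log2 fold change −1.47 ± 0.36; edgeR, adjusted p = 0.0108), with adjusted p-values of 0.0714 and 0.061 without WT αMARCO replicate 1 or 2. The gelatinase Mmp9 (chr2:164940780-164955850) was at 10.44 and 11.41 CPM in WT control and 8.31 and 5.09 CPM in WT αMARCO. Its log2 fold change of −0.71 ± 0.24 (edgeR, adjusted p = 0.047) was the weakest of the calls and became −0.38 without WT αMARCO replicate 2, with an adjusted p of 0.314, and −0.65 without WT control replicate 2, with an adjusted p of 0.0635. DESeq2 did not call it either (adjusted p = 0.0646). Mmp25 (chr17:23629458-23645269), a membrane-anchored enzyme of leukocytes, was at 64.37 and 41.88 CPM in WT control and 22.66 and 18.24 CPM in WT αMARCO. It fell 2.60-fold (log2 fold change −1.38 ± 0.24; edgeR, adjusted p = 0.00905), and the adjusted p was 0.0537 without WT αMARCO replicate 1 and 0.0757 without replicate 2.

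The largest changes among the members were in ADAM genes that lack a working catalytic site. Adam11 (chr11:102761439-102780262) was at 17.61 and 12.69 CPM in WT control and 1.35 and 1.53 CPM in WT αMARCO, and fell 10.4-fold (log2 fold change −3.38 ± 0.24; edgeR, adjusted p = 5.78e-05). Adam23 (chr1:63445891-63596276) was at 16.82 and 9.53 CPM in WT control and 0.63 and 1.49 CPM in WT αMARCO, and fell 12.1-fold (log2 fold change −3.6 ± 0.43; edgeR, adjusted p = 0.00114). Both are known as adhesion or receptor-binding proteins of the nervous system. Both stayed called with each library left out. Adam22, another ADAM without a working catalytic site, was at 6.27 and 3.82 CPM in WT control and 3.38 and 3.52 CPM in WT αMARCO. It was not called (log2 fold change −0.55 ± 0.29; edgeR, adjusted p = 0.163).

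Of the sheddases, Adam19 (chr11:46055992-46147343) was at 19.98 and 17.12 CPM in WT control and 10.10 and 13.11 CPM in WT αMARCO. It fell 1.59-fold (log2 fold change −0.67 ± 0.16; edgeR, adjusted p = 0.0105), and the adjusted p was 0.109 without WT αMARCO replicate 1. Adam17, which releases TNF, was at 239.1 and 276.3 CPM in WT control and 284.6 and 288.3 CPM in WT αMARCO, a difference that was not called (log2 fold change 0.15 ± 0.09; edgeR, adjusted p = 0.213). Adam10 had a log2 fold change of −0.23 ± 0.08 and Adam9 of −0.20 ± 0.08 (edgeR, adjusted p = 0.0513 and 0.0795). Adam15 was past the p threshold but below the fold change threshold (log2 fold change 0.44 ± 0.08; edgeR, adjusted p = 0.00257), as was Adamts10 (0.25 ± 0.08; adjusted p = 0.0428).

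In the ADAMTS family, 1 of 8 members tested fell and 7 were not called, against a fall in 11.8% of all genes, a share near the background. Adamts14 (chr10:61197112-61273438), a procollagen N-proteinase, was at 5.59 and 5.60 CPM in WT control and 1.74 and 2.82 CPM in WT αMARCO. It fell 2.43-fold (log2 fold change −1.28 ± 0.29; edgeR, adjusted p = 0.00751), with an adjusted p of 0.0808 without WT αMARCO replicate 1. The proteoglycan-cleaving enzymes Adamts8, Adamts1 and Adamts4 did not pass, with log2 fold changes of −1.29 ± 0.46, −1.04 ± 0.56 and −0.89 ± 0.39 (edgeR, adjusted p = 0.0518, 0.182 and 0.101). Each was below 4 CPM in all libraries. Adam32 (log2 fold change 2.10 ± 0.93; edgeR, adjusted p = 0.109) and Adam4 (1.24 ± 0.58; adjusted p = 0.123), both best known from testis, had the largest positive values among members not called, at 1.06 and 2.26 CPM in their highest libraries.

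**Figure D4:**
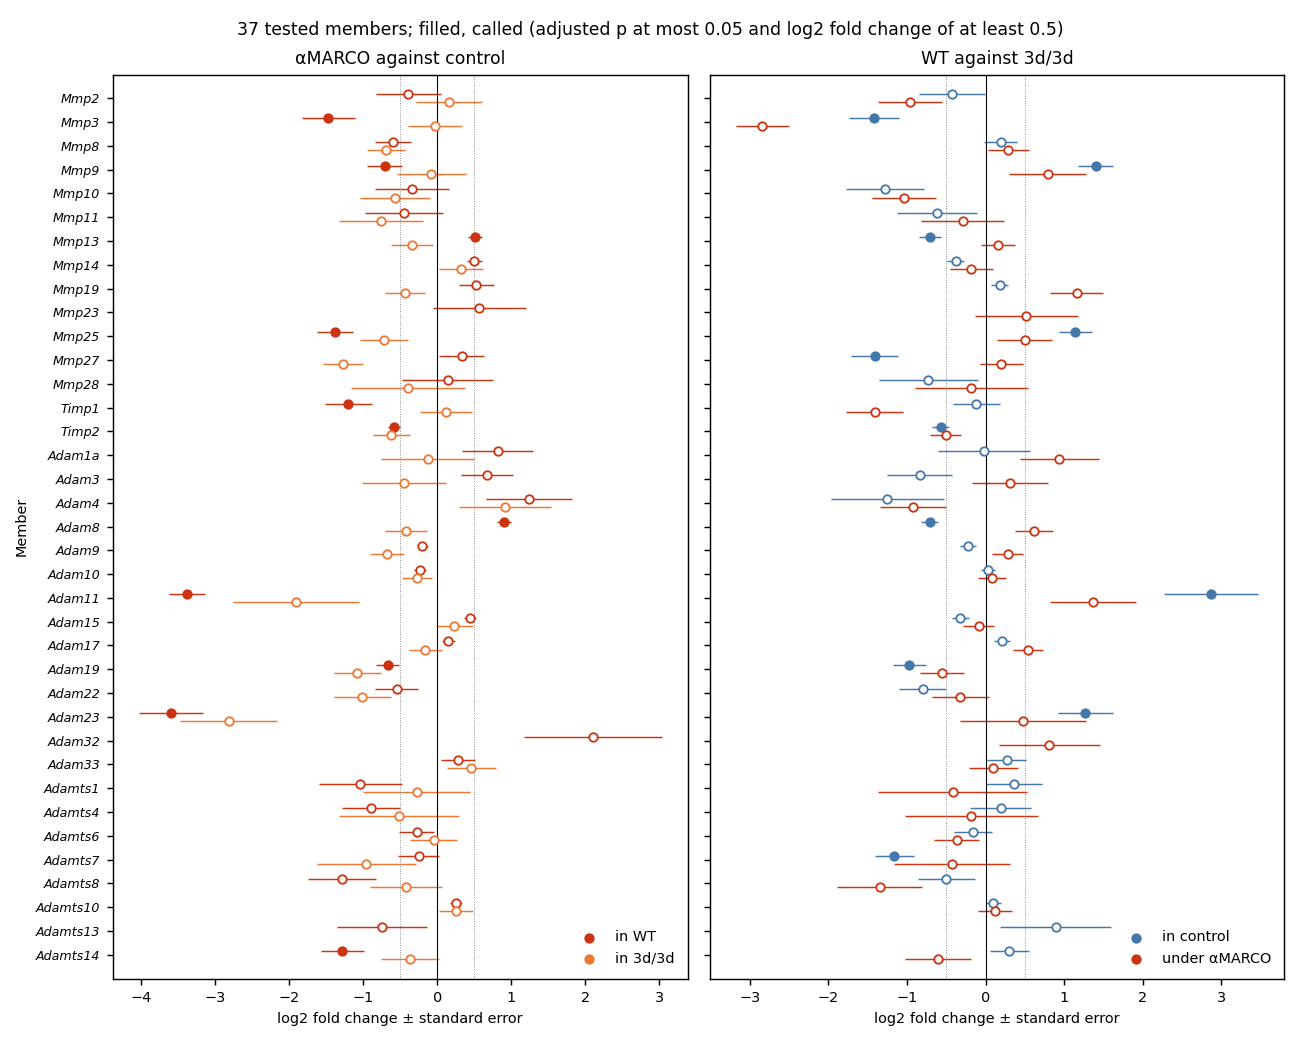
Log2 fold change with its standard error (horizontal bar) of the 37 tested members, for αMARCO against control in each genotype (left) and for WT against Unc93b1 3d/3d under each treatment (right), with filled points for called members and dotted lines at a log2 fold change of 0.5 in either direction. Filled points appear in WT (11 members) and in control (11 members), and none under the comparisons that use the Unc93b1 3d/3d αMARCO libraries.

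Markers of other cells moved with some of these members. The 7 markers of conventional and mature dendritic cells summed to 895.1 and 586.1 CPM in WT control, 316.9 and 385.1 in WT αMARCO, 223.5 and 198.0 in Unc93b1 3d/3d control and 289.7 and 305.6 in Unc93b1 3d/3d αMARCO, and none was at 0. Of these 7, 4 fell in WT αMARCO, among them Ccr7 and Zbtb46. The 10 T cell markers summed to 118.5 and 132.8 CPM in WT control and between 5.59 and 23.8 CPM in the other libraries, and 10 of 10 fell. Adam11, Adam23, Mmp25 and Mmp9 were likewise highest in the 2 WT control libraries. The 10 fibroblast markers summed to 225.4 and 188.4 CPM in WT control and 81.1 and 50.1 in WT αMARCO, where Col3a1 was at 21.74 and 13.51 CPM and Col1a1 at 1.11 and 0.82 CPM, and 4 of the 10 fell while Fap rose. Mmp3, Timp1 and Timp2 fell in the same comparison. The part of these cells in the changes was not tested.

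**Figure D5:**
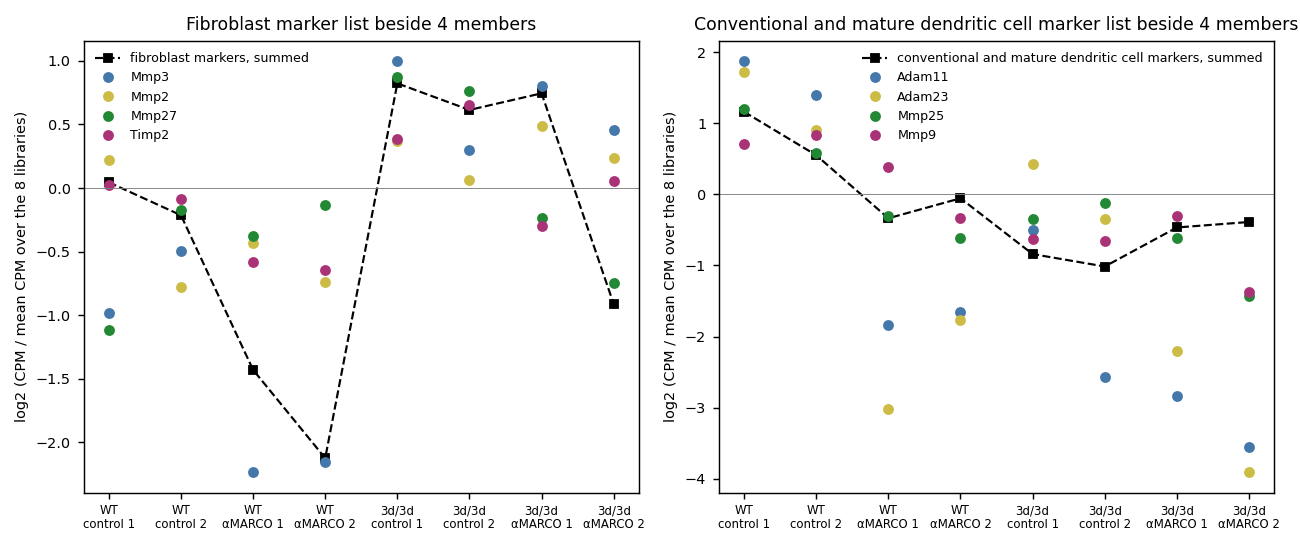
Log2 ratio of CPM to the mean over the 8 libraries, for the summed fibroblast markers beside Mmp3, Mmp2, Mmp27 and Timp2 (left) and for the summed dendritic cell markers beside Adam11, Adam23, Mmp25 and Mmp9 (right), library by library. Mmp3 and the fibroblast sum are both lowest in the 2 WT αMARCO libraries, and the 4 genes on the right and the dendritic cell sum are all highest in the 2 WT control libraries.

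Neutrophils are another source of Mmp8, Mmp9 and Mmp25, and 3 of the 5 neutrophil markers tested fell in WT αMARCO. Ltf, a granule protein, was at 4.38 and 5.37 CPM in WT control, 0.29 and 0.27 in WT αMARCO, 1.0 and 0.3 in Unc93b1 3d/3d control and at most 0.09 in Unc93b1 3d/3d αMARCO, and it was highest in WT control as Mmp9 and Mmp25 were. It fell in WT αMARCO (log2 fold change −4.09; edgeR, adjusted p = 0.000153) and was the 1 marker of 7 tested that differed between the control groups, with more in WT (2.92; adjusted p = 0.00469). Cxcr2 (−3.27; edgeR, adjusted p = 0.0155) and S100a8 (−2.32; adjusted p = 0.00931) also fell in WT αMARCO. All 10 markers summed to 205.9 to 363.4 CPM, of which Csf3r, also expressed by macrophages, gave 193.9 to 359.6 CPM, while Ngp, Camp, Ly6g and Mpo stayed below 1 CPM in every library. The part of neutrophils in the changes was not tested. Mmp8 was at 36.06 and 23.27 CPM in WT control and 16.47 and 22.47 CPM in WT αMARCO and was not called (log2 fold change −0.60 ± 0.24; edgeR, adjusted p = 0.108).

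The second question was whether TAMs of the 2 genotypes differed in control tumors. Of 35 members tested, 4 were higher in WT (11.4%) against 6.58% of the 15600 genes tested, and 7 were lower in WT (20.0%) against 6.40% of all genes. The median log2 fold change, WT over Unc93b1 3d/3d, was −0.22 over the members and 0.00 over all genes. Adam11, Adam23, Mmp9 and Mmp25 were higher in WT. Adam8, Adam19, Adamts7, Mmp3, Mmp13, Mmp27 and Timp2 were higher in Unc93b1 3d/3d. With all 8 libraries in 1 model, 364 of 16620 genes were called, and Adam11 was the only member among them (edgeR, adjusted p = 0.045). The adjusted p of the other 10 lay between 0.0696 for Mmp27 and 0.382 for Adamts7, with 0.101 for Adam8 and 0.128 for Mmp9. This comparison uses the same WT control libraries as the one above, so the signs of the 2 are not independent.

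All 3 called genes of the chromosome 9 cluster were lower in WT. Mmp13 was at 410.7 and 414.4 CPM in WT and 570.7 and 768.1 CPM in Unc93b1 3d/3d control (log2 fold change −0.71 ± 0.14; edgeR, adjusted p = 0.00827). Without Unc93b1 3d/3d control replicate 2 the value was −0.49, under the fold change threshold. Mmp3 was at 2.64 and 3.71 CPM in WT and 10.42 and 6.44 CPM in Unc93b1 3d/3d (log2 fold change −1.42 ± 0.32; edgeR, adjusted p = 0.0158), with an adjusted p of 0.0948 without Unc93b1 3d/3d control replicate 1. Mmp27 (chr9:7571396-7581885), a little-studied stromelysin-like enzyme whose promoter window held neither motif, was at 9.33 and 17.95 CPM in WT and 37.09 and 34.48 CPM in Unc93b1 3d/3d. The difference was 2.66-fold (log2 fold change −1.41 ± 0.30; edgeR, adjusted p = 0.0269), with adjusted p-values of 0.202 and 0.156 without Unc93b1 3d/3d control replicate 1 or 2. Mmp10, whose window held both motifs, was at 2.32 and 0.89 CPM in WT and 5.02 and 2.74 CPM in Unc93b1 3d/3d and was not called (log2 fold change −1.28 ± 0.50; edgeR, adjusted p = 0.108). Mmp8 did not differ by more than its spread (0.19 ± 0.21; adjusted p = 0.567).

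Mmp9 was at 10.44 and 11.41 CPM in WT and 4.14 and 4.06 CPM in Unc93b1 3d/3d control. Replicates agreed closely in both groups, the difference was 2.63-fold (log2 fold change 1.4 ± 0.22; edgeR, adjusted p = 0.00358), and the call held with each library left out but not with all 8 libraries in 1 model. Mmp25 was at 64.37 and 41.88 CPM in WT and 22.03 and 25.66 CPM in Unc93b1 3d/3d (log2 fold change 1.14 ± 0.21; edgeR, adjusted p = 0.0117), and its adjusted p was 0.151 and 0.0921 without Unc93b1 3d/3d control replicate 1 or 2. Mmp14 was below the fold change threshold here too (log2 fold change −0.38 ± 0.11; edgeR, adjusted p = 0.0481).

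Adam8 was 1.64-fold lower in WT (log2 fold change −0.71 ± 0.11; edgeR, adjusted p = 0.00322), with no overlap between the 4 libraries and a call that held without each of them but not with all 8 libraries in 1 model. Adam19 was at 19.98 and 17.12 CPM in WT and 28.05 and 43.61 CPM in Unc93b1 3d/3d (log2 fold change −0.97 ± 0.21; edgeR, adjusted p = 0.0187). Without Unc93b1 3d/3d control replicate 2 its value was −0.62. Adam11 was at 3.39 and 0.81 CPM in Unc93b1 3d/3d and was 7.33-fold higher in WT (log2 fold change 2.87 ± 0.60; edgeR, adjusted p = 0.032), but the adjusted p was 0.261 without WT control replicate 1 and 0.256 without replicate 2. Adam23 was at 6.84 and 4.01 CPM in Unc93b1 3d/3d and 2.42-fold higher in WT (log2 fold change 1.27 ± 0.35; edgeR, adjusted p = 0.0445). It was not called without WT control replicate 1 (0.82, adjusted p = 0.0917) or Unc93b1 3d/3d control replicate 2 (0.92, adjusted p = 0.156).

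Timp2 was at 251.6 and 233.7 CPM in WT and 324.1 and 390.4 CPM in Unc93b1 3d/3d control (log2 fold change −0.57 ± 0.11; edgeR, adjusted p = 0.00836). Without Unc93b1 3d/3d control replicate 2 its value of −0.44 was under the fold change threshold. Timp1 was at 9.92 and 9.79 CPM in Unc93b1 3d/3d, between the 2 WT libraries, and was not called (log2 fold change −0.12 ± 0.30; edgeR, adjusted p = 0.817). Adamts7 (chr9:90163069-90208071), which degrades cartilage oligomeric matrix protein, was at 3.37 and 3.99 CPM in WT and 7.47 and 8.82 CPM in Unc93b1 3d/3d (log2 fold change −1.16 ± 0.25; edgeR, adjusted p = 0.0135). Its adjusted p was 0.0611 without Unc93b1 3d/3d control replicate 2. Adam4, Adamts13, Adam3 and Adam22 did not pass, with log2 fold changes of −1.25, 0.89, −0.84 and −0.80 (edgeR, adjusted p = 0.259, 0.417, 0.185 and 0.0958).

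The fibroblast markers summed to 386.6 and 334.5 CPM in Unc93b1 3d/3d control against 225.4 and 188.4 in WT control. Of the 10, 4 were called lower in WT and none was called higher, alongside Mmp3, Mmp13, Mmp27 and Timp2. All 10 T cell markers and 3 of 7 dendritic cell markers were higher in WT, alongside Adam11, Adam23, Mmp9 and Mmp25. Of other lists, the nonclassical monocyte markers Cd300e (log2 fold change 6.05; edgeR, adjusted p = 1.08e-07) and Spn (2.82; adjusted p = 3.02e-06) were called higher in WT control, 2 of 5 tested. So were 2 of 6 natural killer cell markers, 2 of 4 B cell markers and 1 of 6 endothelial markers, Pecam1. None of these lists had a marker called lower, while the median log2 fold change of the endothelial list was −0.17. In WT αMARCO, Cd300e and Spn fell while Nr4a1 of the same list rose, and 3 of 6 natural killer cell markers, 1 of 4 B cell markers, 2 of 6 endothelial markers and 2 of 3 epithelial markers fell. Of 5 classical monocyte markers Ccr2 alone was called, and it went the other way. It was lower in WT control (log2 fold change −0.58; edgeR, adjusted p = 0.0455) and rose in WT αMARCO (0.69; adjusted p = 0.0187). The part of these cells in the differences was not tested.

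The third question was whether αMARCO acted on these genes without endosomal TLRs. In Unc93b1 3d/3d TAMs, 0 of 34 members and 0.0% of 15428 genes were called by edgeR. At an unadjusted p of at most 0.05 there were 7 members (20.6%) against 4.82% of all genes, and DESeq2 called 2 members (5.88%) against 0.389% of all genes. The 7 were Adam19, Adam22, Adam23, Adam9, Mmp8, Mmp27 and Timp2, each with a negative log2 fold change, and the 2 that DESeq2 called were Adam23 (−2.87, adjusted p = 0.0304) and Mmp27 (−1.29, adjusted p = 0.0496).

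Mmp27 was at 37.09 and 34.48 CPM in Unc93b1 3d/3d control and 17.18 and 12.10 CPM under αMARCO (log2 fold change −1.27 ± 0.27; edgeR, adjusted p = 0.823). Adam23 was at 6.84 and 4.01 CPM in control and 1.11 and 0.34 CPM under αMARCO (log2 fold change −2.82 ± 0.66; edgeR, adjusted p = 0.823). Timp2 was at 324.1 and 390.4 CPM in control and 202.0 and 257.9 CPM under αMARCO (log2 fold change −0.62 ± 0.25; edgeR, adjusted p = 0.823). In each of these the treated libraries lay below both controls, as they did in WT for Adam23 and Timp2.

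These results turned on the 2 libraries that stood apart. Without Unc93b1 3d/3d αMARCO replicate 1, edgeR called 13 of 36 members (36.1%) in Unc93b1 3d/3d TAMs against 34.1% of all genes, a share near the background, of which Mmp14 alone was higher (log2 fold change 0.56, adjusted p = 0.00389). Without replicate 2 it called 5 of 38 (13.2%) against 3.41% of all genes, all lower: Adam19, Adam23, Adam9, Mmp27 and Timp2. Adam19, Adam23, Adam9 and Mmp27 were called both times, and Timp2 had a log2 fold change of −0.46 without replicate 1, under the fold change threshold. With 1 library in an arm, that library is assumed to vary like the other group.

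Under αMARCO, 0 of 36 members and 0.0% of 15722 genes were called between WT and Unc93b1 3d/3d by edgeR, with 5 members (13.9%) at an unadjusted p of at most 0.05 against 6.84% of all genes. DESeq2 called 1 member (2.78%) against 1.36% of all genes. That member was Mmp3, at 1.11 and 1.17 CPM in WT αMARCO and 9.10 and 7.18 CPM in Unc93b1 3d/3d αMARCO (log2 fold change −2.84 ± 0.34; edgeR, adjusted p = 0.187; DESeq2, adjusted p = 9.38e-06). All 4 libraries agreed in direction, and edgeR called Mmp3 without Unc93b1 3d/3d αMARCO replicate 1 (−2.64, adjusted p = 3.96e-08) and without replicate 2 (−3.02, adjusted p = 2.89e-07). Without replicate 1 edgeR called 11 of 37 members (29.7%) against 38.6% of all genes, and without replicate 2 it called 5 (13.5%) against 7.45%. Adamts7, at 6.70 and 1.44 CPM in the pair, was called in opposite directions, at 1.11 without replicate 1 (adjusted p = 0.0276) and −1.14 without replicate 2 (adjusted p = 0.00769). The fibroblast markers stood at 366.2 and 116.0 CPM in Unc93b1 3d/3d αMARCO and 81.1 and 50.1 CPM in WT αMARCO, and their part was not tested. Mmp2, the gelatinase that MMP14 activates, was at most 2.93 CPM in any library and was called in no comparison. Timp1 was at 7.81 and 13.47 CPM in Unc93b1 3d/3d αMARCO and 4.4 and 3.6 CPM in WT αMARCO (log2 fold change −1.41 ± 0.36; edgeR, adjusted p = 0.565). It was called without replicate 1 (−1.75, adjusted p = 3.7e-08) and without replicate 2 (−1.0, adjusted p = 0.0108).

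Whether the αMARCO effect differed between the genotypes was tested as an interaction over all 8 libraries. edgeR called 0 of 37 members and 0.0% of 16620 genes. At an unadjusted p of at most 0.05 there were 6 members (16.2%) against 15.3% of all genes, a share near the background, and DESeq2 called 2 members (5.41%) against 1.27% of all genes. The 2 were Adam8 (log2 difference 1.34, DESeq2 adjusted p = 5.12e-05) and Mmp27 (1.62, DESeq2 adjusted p = 0.0442). In edgeR the Adam8 difference was 1.31 ± 0.25 with an adjusted p of 0.281, and it was called without Unc93b1 3d/3d αMARCO replicate 1 (1.45, adjusted p = 8.37e-06) and without replicate 2 (1.17, adjusted p = 0.00234). The Mmp27 difference was 1.59 ± 0.44 in edgeR (adjusted p = 0.318), 1.89 without replicate 1 (adjusted p = 0.0172) and 1.34 without replicate 2 (adjusted p = 0.172). In all, 7 of 40 members (17.5%) were called without replicate 1 against 36.4% of all genes, and without replicate 2 Adam8 and Mmp13 were called (5.0%) against 3.45%. A change that passed in WT and not in Unc93b1 3d/3d is therefore not shown by the main edgeR run to differ between them. In edgeR without a filter beyond 1 count, Adam8 (1.33, adjusted p = 0.0276) and Mmp27 (1.61, adjusted p = 0.039) were called. That run called 2 of 62 members and 152 of 26939 genes.

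Genes that activate or regulate these enzymes were listed beside them. Of 9 tested genes of plasminogen activation, a protease system upstream of several MMPs, 0 rose and 2 fell in WT αMARCO: Plat (log2 fold change −1.95; edgeR, adjusted p = 0.000764) and S100a10 (−0.59; adjusted p = 0.00259). Plau, the urokinase activator, was lower in WT control than in Unc93b1 3d/3d control (−0.68; adjusted p = 0.00984) and was the only one of 10 called there. Of 13 tested genes that control proteases, 2 rose and 3 fell in WT αMARCO. Furin, which removes the propeptide of several MMPs and ADAMs, rose from 207.1 and 199.9 CPM to 312.3 and 356.6 CPM (0.72; adjusted p = 0.00042), and Lrp1, a receptor that clears MMPs and TIMPs, rose too (0.77; adjusted p = 0.000694). Both were lower in WT than in Unc93b1 3d/3d control (−0.66 and −0.82; edgeR, adjusted p = 0.00188 and 0.00159), the only 2 of the 13. Rhbdf1, Cd63 and Tspan33 fell in WT αMARCO. Rhbdf2, which carries ADAM17 to the surface of leukocytes, had a log2 fold change of 0.47 (adjusted p = 0.00433), under the fold change threshold.

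Of 20 tested surface proteins that ADAMs release, 1 rose and 5 fell in WT αMARCO, and in control 2 were higher and 2 lower in WT. Cxcl16, a substrate of ADAM10, rose (log2 fold change 0.50; edgeR, adjusted p = 0.00222), while Vcam1, Cx3cl1, Hbegf, Ereg and Lag3 fell. Tnf and Icam1 were higher in WT control, and Mertk and Trem2 were lower. Relatives outside the naming rule included Adamdec1, which was at 2.0 and 1.16 CPM in WT control and at most 0.20 CPM elsewhere and fell in WT αMARCO (−2.99; edgeR, adjusted p = 0.00458), together with Adamtsl3 and Bmp1, while Adamtsl4 rose. No gene of these lists was called in the 3 comparisons that involve the Unc93b1 3d/3d αMARCO libraries by edgeR.

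The 22 members not measured stayed under 10 counts in every library and were Adam12, Adam1b, Adam21, Adam28, Adam30, Adam5, Adam6b, Adamts12, Adamts15, Adamts18, Adamts2, Adamts5, Mmp15, Mmp16, Mmp17, Mmp1b, Mmp20, Mmp21, Mmp24, Mmp7, Timp3 and Timp4. Of the 40 measured, 37 passed the filter on low counts in at least 1 comparison, and Adamts3, Adamts20 and Adamts9 were measured but not tested. Among the named members, Mmp19 shares 22.3% of its exonic bases with Tmem198b and Adam15 shares 20.6% with an antisense gene, both on the opposite strand. Whether the counting used strand is not given in the sources used here, so their reads cannot be told apart from those of the partners.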

How the data were processed

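The members and gene lists were chosen with earlier results of these data known. TAM poly-A RNA was sequenced in 8 libraries. The authors cleaned reads with fastp, used HISAT2 2.0.5 for alignment to GRCm38 and took gene counts from featureCounts 1.5.0, per the submitters' processing notes. The deposited raw counts, unnormalized, were joined by gene identifier. All 95230 counts present in more than 1 table were identical, and a gene absent from a table was set to 0. The authors' deposited gene length, the scale of the CPM per kilobase given here, came with the tables. The authors' normalized counts, FPKM, fold changes and p-values (DESeq2 1.40.2) were not used.

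Tests used edgeR 4.0.16 in R 4.3.3 (TMM factors, filterByExpr, robust quasi-likelihood test, Benjamini-Hochberg adjustment over all genes tested), fitted on the 4 libraries of each comparison, with all 8 libraries for the interaction. CPM uses TMM factors over all 8 libraries. Standard errors were derived from the fold change and the F statistic. Procedures were tested on simulated data. Floors of 3 counts cover counting error only.

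Named members were all those called, every Timp, the 10 highest per kilobase, and the 5 largest uncalled values for αMARCO in WT and for genotype in control. Mmp8, Mmp2 and genes of the marker and pathway lists were named after their values were seen, and the result of 1 macrophage marker is not reported here. Promoters came from RefSeq (GRCm38.p6), and exonic overlaps from GENCODE on GRCm38. Alternatives were DESeq2 1.42.0, DESeq2 size factors in edgeR, a minimum of 10 counts in all libraries, only genes without a count left out, no fold change threshold, a replicate block, all 8 libraries in 1 model, and each library left out.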

Additional observations from a re-analysis of the deposited data

Results flagged for a closer look

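In 4 members the 2 αMARCO libraries lay above both controls in WT and below both controls in Unc93b1 3d/3d. How often all genes show this pattern was not counted, so the 4 are described gene by gene and their number is no result. The difference of the 2 effects on the log2 scale was 1.31 ± 0.25 for Adam8 (edgeR, adjusted p = 0.281), 0.86 ± 0.27 for Mmp13 (adjusted p = 0.318), 0.97 ± 0.38 for Mmp19 (adjusted p = 0.318) and 0.31 ± 0.22 for Adam17 (adjusted p = 0.448). The test of the difference did not pass after adjustment in the main edgeR run for any of the 4. In edgeR without a filter beyond 1 count, Adam8 alone of the 4 was called (1.33, adjusted p = 0.0276). Mmp19 was at 81.61 and 81.43 CPM in WT control, 90.0 and 146.1 in WT αMARCO, 76.81 and 65.83 in Unc93b1 3d/3d control and 63.0 and 40.96 in Unc93b1 3d/3d αMARCO. Without Unc93b1 3d/3d αMARCO replicate 1 or 2, the difference of Mmp19 was 1.33 or 0.67 (edgeR, adjusted p = 0.0487 or 0.422) and that of Mmp13 was 0.76 or 0.95 (adjusted p = 0.0129 or 0.033). For Adam8 it was 1.45 or 1.17 (adjusted p = 8.37e-06 or 0.00234), and for Adam17, under the fold change threshold both times, 0.43 or 0.2 (adjusted p = 0.0338 or 0.52).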

How the results depend on the processing

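Within the comparison in which it was called with all libraries, no member changed direction under any alternative run. With all 8 libraries in 1 model, 2 members, Adam11 and Adam23, were called for αMARCO in WT and 1, Adam11, for genotype in control, against 11 and 11. Adam8, Mmp9, Mmp13 and the others were lost, while 1, Mmp3, was called for genotype under αMARCO. Calls over all genes fell too, from 3236 of 15630 to 164 of 16620 for αMARCO in WT. For genotype in control they fell from 2025 of 15600 to 364 of 16620, and under αMARCO they rose from 0 of 15722 to 108 of 16620. The cause was not tested. Members called for αMARCO in Unc93b1 3d/3d, genotype under αMARCO and the interaction numbered 2, 1 and 2 in DESeq2, against 0 each. Over all genes DESeq2 called 60 of 15428, 214 of 15722 and 211 of 16620. In edgeR without a filter beyond 1 count the members numbered 2, 1 and 2 too, and all genes called were 174 of 24858, 107 of 25782 and 152 of 26939. Leaving out 1 library at a time gave 7 to 16 members for αMARCO in WT, 0 to 13 in Unc93b1 3d/3d, 5 to 11 for genotype in control, 0 to 11 under αMARCO and 0 to 7 for the interaction. Calls over all genes varied between these leave-out runs too, in every comparison. The ranges of member counts alone therefore do not show that the members were less stable than other genes. A block for the replicate number called 1 member for genotype under αMARCO, Mmp3, with 97 of 15722 genes called. It kept the other member counts within 1.5 times. The labels do not say whether samples with the same number were handled together. Their deviations correlated by −0.077 to 0.135, which cannot decide it. Without a count minimum, all 62 members had a count in some library, and 29 reached 10 counts in every library. With 2 libraries per group, differences under the fold change threshold and members below 1 CPM are poorly resolved.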
